A study of Mus musculus with 13 samples.

Results

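The 52 genes described here serve DNA replication (25 genes) and mitosis (27 genes). They were taken from a fixed list of names, and every feature that the array's annotation assigns to one of them was read on all 13 arrays. The annotation gave 73 features to 51 of the members, out of 62976 features and 20738 named genes in all. Levels of Ccnb1 were not analysed here, and only its promoter window was read. Of the members, 40 had 1 feature and 11 had from 2 to 10. A member with several features is represented by the one with the highest mean over the 13 arrays. Aurkb and Ccne2 lay under the array median of 7.488 on all arrays, with values of 1.91 to 5.37 and 3.23 to 6.17, and were not tested. That leaves 49 members, 24 of replication and 25 of mitosis, among 16658 genes tested.

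RNA from mouse cells and tissue was labelled with Cy3 and hybridised to 1-colour Agilent arrays, 1 sample per array. The starting cells were wild-type mouse embryonic fibroblasts with an empty vector (MEF, 2 arrays) and wild-type tail tip fibroblasts carrying tdTomato (TTF, 2 arrays), both grown for 3 passages in 10% serum. Induced embryonic Sertoli cells carried transgenes for Nr5a1, Wt1, Dmrt1, Gata4 and Sox9 and had been kept for 6 months in 2% serum with doxycycline. TTF gave rise to TTF-ieSC (2 arrays), and MEF to MEF-ieSC (1 array). The native samples, wild type and with no transgene, were whole male gonad at 14.5 days post coitum (dpc), not cultured, immature Sertoli cells of 19 dpc testis, cultured for 3 days in 10% serum, and mature Sertoli cells of 8-week-old testis, cultured for 7 days in 10% serum (2 arrays each). Serum, time in culture and the transgenes differ together between induced cells and fibroblasts and cannot be told apart. Age and time in culture also differ together between the native groups. Whether the replicate arrays came from separate animals or cultures is not given, so a p-value here reflects array-to-array spread alone, and that spread may be technical.

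Before a cell can copy its DNA, a ring of 6 Mcm proteins is loaded on replication origins by Cdc6 and Cdt1 and switched on by Cdc45 and the GINS complex. Polymerases then work behind it on nucleotides supplied by enzymes such as ribonucleotide reductase. In mitosis, cyclin-bound Cdk1 and the kinases Plk1 and Aurka build the spindle, Bub1, Bub1b, Ttk and Mad2l1 hold the cell until every chromosome is attached, and Cdc20 then starts separation. Replication genes are known targets of E2F factors. Many mitotic genes are known to be driven by B-Myb (Mybl2) and Foxm1 through the cell cycle homology region (CHR), often beside boxes bound by NF-Y. In the testis, Sertoli cells are known to divide in fetal and early postnatal life and to stop as they mature.

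The promoters show this division of the list in their CHR and E2F letters. RefSeq windows from 250 bases before to 50 after a gene's start (GRCm38.p6, the first window listed for a gene) were held for 42 members, 21 of each kind, and not used for Mcm4, Gins1, Gins2, Ccne2, Ccna2, Cdc25c, Aurkb, Kif20a, Tpx2 and Foxm1. Both strands were searched for the CHR letters TTTGAA, the NF-Y box CCAAT, the E2F boxes TTTGGCGC, TTTCCCGC and TTTCGCGC, and the shorter E2F motif GCGGGAA, which lies inside the reverse complement of TTTCCCGC. TTTGAA stood in 14 of 21 mitosis windows (66.7%) and in 3 of 21 replication windows (14.3%), against 18.1% of all 27025 windows. It began within 50 bases of the start, a distance chosen after the positions were seen, in 13 mitosis windows (61.9%), 1 replication window (4.76%) and 4.92% of all windows. All 14 mitosis windows with TTTGAA also held CCAAT, a pairing found in 2 replication windows and in 7.12% of all windows. At least 1 of the 3 E2F boxes stood in 8 replication windows (38.1%) and in 1 mitosis window (4.76%, Cdk1), against 1.91% of all windows. The shorter GCGGGAA stood in 8 replication windows (38.1%), 0 mitosis windows and 4.66% of all windows. A match is a description of the letters and not a bound site.

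The 7 windows below were chosen, after the search, to show each pattern of letters rather than by size of change. Plk1 and Bub1b are mitosis genes with TTTGAA, and Mcm3 and Mcm5 are replication genes with E2F boxes. Mybl2 had the largest rise from TTF among the members, and Ccne1 and Rrm2 are 2 of the 3 members that fell there. Each is written 5′ to 3′ along the gene's strand, with the searched letters in capitals.
Plk1, chr7:122159185-122159484, plus strand: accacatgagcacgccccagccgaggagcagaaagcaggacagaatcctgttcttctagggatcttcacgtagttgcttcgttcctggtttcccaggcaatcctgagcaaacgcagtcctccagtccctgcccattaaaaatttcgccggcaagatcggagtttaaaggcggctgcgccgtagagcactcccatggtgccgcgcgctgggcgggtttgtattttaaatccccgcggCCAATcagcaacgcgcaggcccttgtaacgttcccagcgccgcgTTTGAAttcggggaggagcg
Bub1b, chr2:118597961-118598260, plus strand: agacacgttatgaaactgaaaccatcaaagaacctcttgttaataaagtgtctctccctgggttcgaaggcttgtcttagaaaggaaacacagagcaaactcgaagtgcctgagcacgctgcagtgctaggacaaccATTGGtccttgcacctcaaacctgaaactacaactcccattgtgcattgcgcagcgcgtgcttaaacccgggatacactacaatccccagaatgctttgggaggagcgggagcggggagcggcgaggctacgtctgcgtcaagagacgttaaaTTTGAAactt
Mybl2, chr2:163054385-163054684, plus strand: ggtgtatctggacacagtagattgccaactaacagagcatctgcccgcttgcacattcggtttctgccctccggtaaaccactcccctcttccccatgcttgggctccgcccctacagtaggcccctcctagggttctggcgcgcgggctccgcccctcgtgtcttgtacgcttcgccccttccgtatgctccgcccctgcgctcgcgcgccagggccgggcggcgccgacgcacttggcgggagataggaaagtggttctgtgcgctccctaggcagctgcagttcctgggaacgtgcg
Mcm3, chr1:20820263-20820562, minus strand: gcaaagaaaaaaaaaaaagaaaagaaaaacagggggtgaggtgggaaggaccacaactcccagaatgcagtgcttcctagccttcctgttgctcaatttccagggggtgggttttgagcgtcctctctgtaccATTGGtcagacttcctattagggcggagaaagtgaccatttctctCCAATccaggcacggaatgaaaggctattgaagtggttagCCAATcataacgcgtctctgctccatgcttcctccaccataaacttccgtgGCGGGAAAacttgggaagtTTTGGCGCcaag
Mcm5, chr8:75109259-75109558, plus strand: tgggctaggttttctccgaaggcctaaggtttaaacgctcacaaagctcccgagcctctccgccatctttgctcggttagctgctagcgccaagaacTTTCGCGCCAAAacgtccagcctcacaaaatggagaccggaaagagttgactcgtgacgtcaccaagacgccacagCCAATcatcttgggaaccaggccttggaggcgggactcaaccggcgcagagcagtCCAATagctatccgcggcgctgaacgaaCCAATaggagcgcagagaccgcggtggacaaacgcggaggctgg
Ccne1, chr7:38107441-38107740, minus strand: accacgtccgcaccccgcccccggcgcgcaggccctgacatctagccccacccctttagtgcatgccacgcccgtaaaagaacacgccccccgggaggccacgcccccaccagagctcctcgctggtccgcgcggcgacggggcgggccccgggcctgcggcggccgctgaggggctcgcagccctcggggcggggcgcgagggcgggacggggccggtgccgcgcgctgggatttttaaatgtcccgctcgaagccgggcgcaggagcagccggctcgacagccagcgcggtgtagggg
Rrm2, chr12:24708004-24708303, plus strand: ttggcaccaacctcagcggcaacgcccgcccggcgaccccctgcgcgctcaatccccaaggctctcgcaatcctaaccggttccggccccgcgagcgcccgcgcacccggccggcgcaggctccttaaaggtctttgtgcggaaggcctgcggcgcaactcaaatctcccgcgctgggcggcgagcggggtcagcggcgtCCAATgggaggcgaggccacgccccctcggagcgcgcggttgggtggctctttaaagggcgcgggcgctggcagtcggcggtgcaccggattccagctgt
Plk1 and Bub1b each hold 1 CCAAT and, after the start, 1 TTTGAA. Mcm3 and Mcm5 each hold 3 CCAAT and E2F boxes. Rrm2 holds 1 CCAAT, and none of the searched letters occur in the windows of Mybl2 and Ccne1, nor in that of E2f1, the other member that fell. The windows of Mybl2 and E2f1 lie inside the listed span of the gene, so the bases before its outermost start were not searched. Only exact letters were sought, so other forms of these sites were not read.

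The values are the authors' deposited log2 signals, which have the same distribution on every array, so a level is relative to its own array, and only differences within a gene are compared. Over the 49 tested members, replicates differed by 0.063 to 0.349 (root mean square log2 difference). The immature pair lay farthest apart, where replicate 2 was lower than replicate 1 by 1.63 for Cenpe and by 1.46 for Cdc20. The labels were checked against marker lists. Wt1 and Sox9 of the Sertoli cell list are also transgenes of the induced cells, so this list is not independent of the induction. Wt1 was at 6.81 in TTF and 16.48 in TTF-ieSC, and at 11.77 in MEF and 16.58 in MEF-ieSC. Whether its feature reads the transgene was not tested. The 10 Sertoli cell markers had a mean log2 level of 8.80 to 9.98 on fibroblast arrays, 12.52 to 12.57 on the induced and 14.10 to 14.91 on the native, with the anti-Müllerian hormone gene Amh under the array median in both induced groups and in the mature cultures. Amh, Cldn11, Dhh, Clu, Wt1, Gstm6 and Tesc were higher in both induced groups than in their starting cells. Sox9 was lower, at 9.12 in MEF-ieSC and 9.79 in TTF-ieSC against 10.88 in MEF and 11.31 in TTF. Inha stayed level, at 10.18 and 10.23 against 10.06 and 10.38. Rhox5 was at 8.36 in MEF-ieSC against 10.62 in MEF, and at 8.53 in TTF-ieSC against 7.71 in TTF. The 6 fibroblast markers were at 6.59 to 6.69 in induced cells and at 11.26 to 11.72 in the Sertoli cell cultures, and 5 smooth muscle and peritubular markers were at 16.03 to 16.62 in those cultures, against 12.51 to 12.63 in the gonad.

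**Figure D1:**
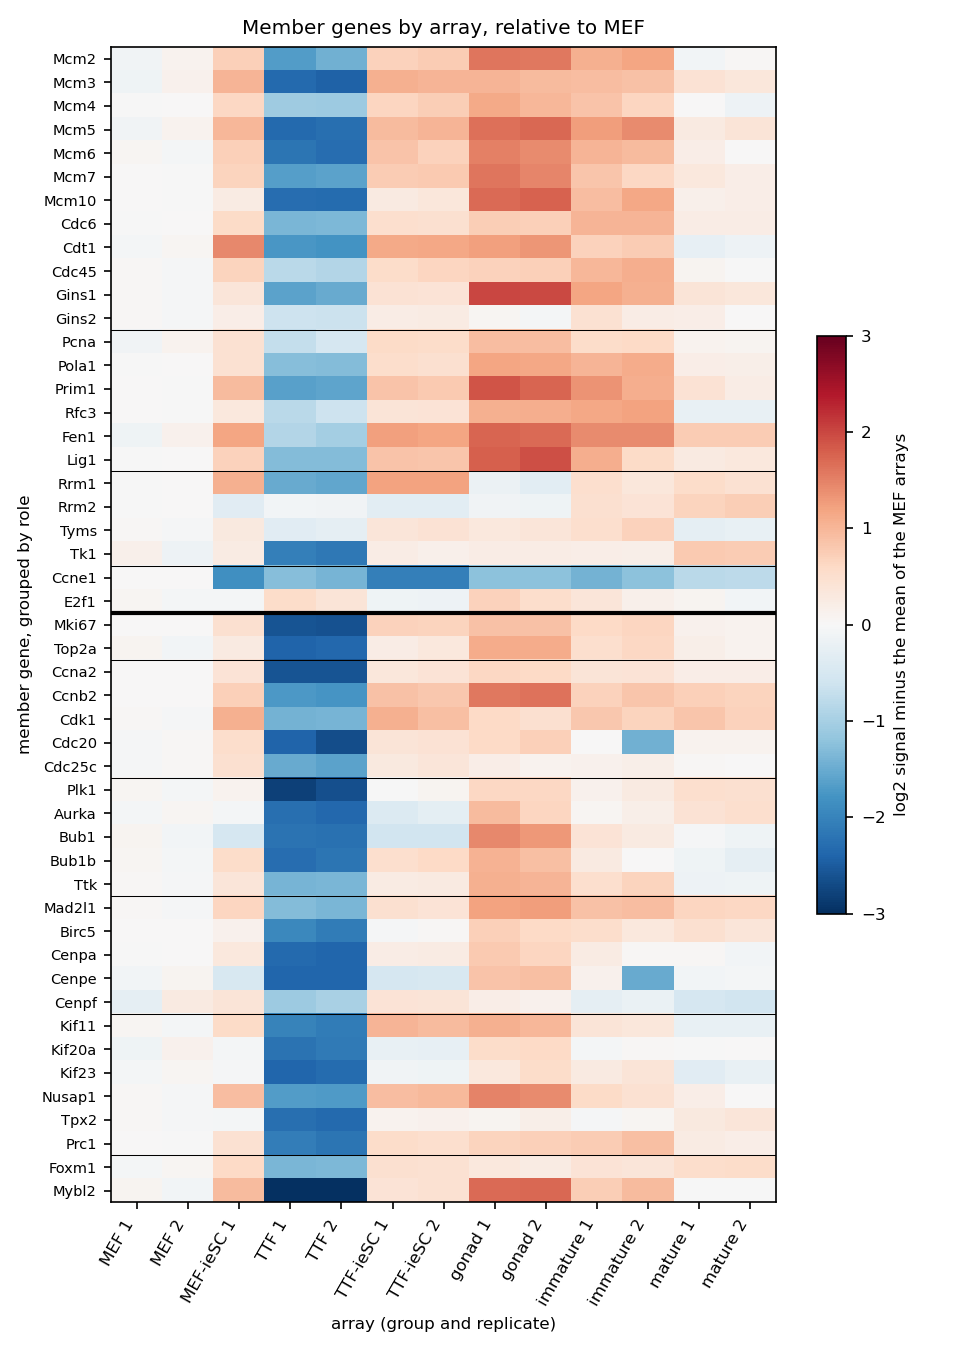
Log2 signal of the 49 tested members (rows, grouped by role, with the thick line between replication above and mitosis below) on the 13 arrays (columns), minus the mean of the MEF arrays for the same gene. The TTF columns are blue for all members but Rrm2 and E2f1, the gonad columns are the reddest, and the rows of Ccne1 and Rrm2 do not follow the rest.

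TTF stood apart from every other group. Their mean was the lowest of the 7 groups for 46 of 49 members, all 25 mitosis genes among them, where 19.9% of all genes tested had their lowest mean in TTF. The gonad had the highest mean for 32 members (65.3%), against 22.7% of all genes. The exceptions to the TTF minimum were Ccne1 and E2f1, lowest in TTF-ieSC, and Rrm2, lowest in MEF-ieSC. Taken against the MEF mean of each gene, the median mitosis member was at -2.21 and -2.20 on the TTF arrays and the median replication member at -1.33 and -1.37, while the median of all genes tested was at -0.04 and -0.03. On the 11 other arrays neither median lay below 0, and the gonad had the highest of both, with 1.10 and 1.04 for replication and 0.80 and 0.71 for mitosis. Such values come from bulk RNA, where fewer dividing cells and less of each transcript per dividing cell cannot be told apart.

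**Figure D2:**
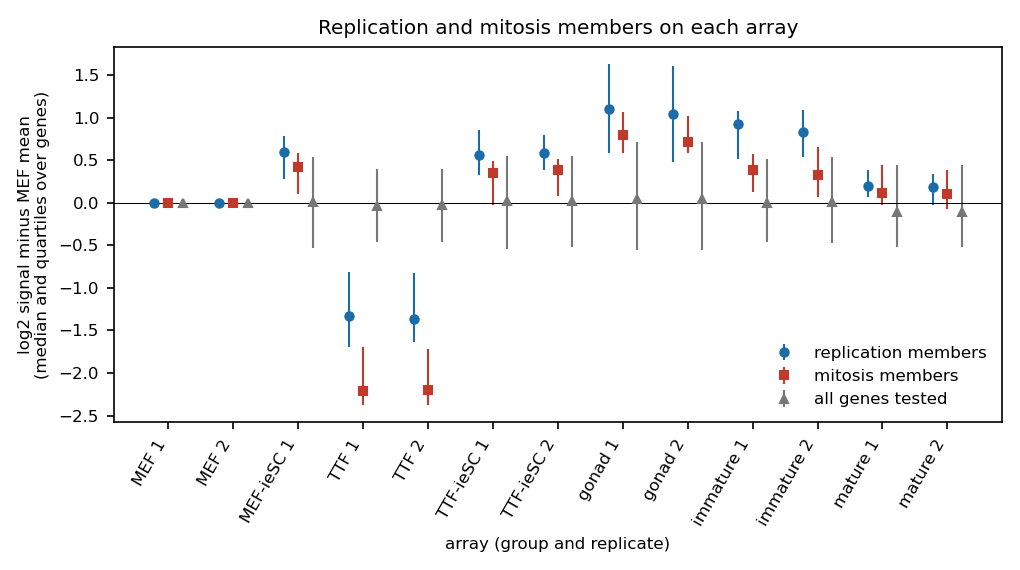
Median and quartiles, over the replication members, the mitosis members and all genes tested, of the log2 signal minus the mean of the MEF arrays, for each array. On the TTF arrays the mitosis median of -2.21 and -2.20 lies below the replication median of -1.33 and -1.37, and on all arrays but those of MEF, where both are 0, the replication median is the higher one.

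The induced cells were first set against their own starting cells, TTF-ieSC against TTF. Of 49 members 46 rose, 3 fell and none missed the threshold of an adjusted p under 0.05, while 39.5% of all genes tested were called higher and 35.2% lower (74.7% in either direction). The median difference was 2.06 over replication members and 2.42 over mitosis members, against 0.06 over all genes tested. Errors here and below are standard errors of limma's fit, and adjusted p-values are limma's with Benjamini-Hochberg adjustment over all genes tested.

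All 12 genes of origin licensing and the helicase rose, from 0.87 for Gins2 to 3.43 for Mcm3. Mcm3, a subunit of the helicase ring, was at 11.76 and 11.67 on the TTF arrays and at 15.16 and 15.12 on the TTF-ieSC arrays. Its groups were far apart (3.43 ± 0.08, a 10.7-fold difference, adjusted p = 1.39e-09), and its other feature rose by less, 1.82. Mcm5, of the same ring, went from 10.94 and 11.01 to 14.21 and 14.28 (3.27 ± 0.09), and Mcm6 went from 13.58 and 13.48 to 16.61 and 16.45 (3.00 ± 0.09). The loading factor Cdt1 rose by 2.91 ± 0.07, from 11.59 and 11.54 to 14.47 and 14.48. All 6 genes of fork synthesis rose as well, by 1.11 to 2.42, with the primase subunit Prim1 at the top. The sliding clamp gene Pcna, high in every group, was at 14.35 and 14.55 in TTF and at 15.64 and 15.61 in TTF-ieSC, a smaller rise of 1.18 ± 0.09 (adjusted p = 2.20e-06). The smallest rises among the replication genes were those of Tyms, which makes thymidylate, by 0.70 ± 0.07, Gins2 by 0.87 ± 0.09 and the clamp loader subunit Rfc3 by 1.11 ± 0.06.

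The genes of nucleotide supply split. Rrm1, the large subunit of ribonucleotide reductase, was at 13.30 and 13.24 in TTF and at 16.02 on both TTF-ieSC arrays (2.74 ± 0.07, adjusted p = 3.02e-09). Rrm2, its small subunit, was at 15.04 and 15.01 in TTF and at 14.80 and 14.81 in TTF-ieSC, a small fall of 0.22 ± 0.05 on the log2 scale (adjusted p = 0.00281). Tk1, the thymidine kinase of dividing cells, rose by 2.27 ± 0.09. Both tested genes of S-phase entry fell. Ccne1, the cyclin E1 gene that activates Cdk2 at the start of S phase, was at 12.89 and 12.78 in TTF and at 12.11 and 12.13 in TTF-ieSC (-0.71 ± 0.07, adjusted p = 1.64e-05). E2f1, the transcription factor of the G1/S switch, went from 13.11 and 12.93 to 12.41 and 12.40 (-0.61 ± 0.10, adjusted p = 0.000638). For Ccne1, E2f1 and Rrm2 the arrays of TTF and TTF-ieSC did not overlap. With 2 arrays in each group this is a weak criterion, and its share over all genes tested was not counted. E2f1 and Rrm2 rest on 1 feature each.

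All 25 mitosis genes rose, from 1.43 for Cenpf, a kinetochore protein, to 3.50 for Mybl2. Mybl2 was at 10.35 and 10.28 in TTF and at 13.78 and 13.84 in TTF-ieSC (3.50 ± 0.08, an 11.3-fold difference, adjusted p = 1.09e-09), the largest rise among the members. Foxm1, the other mitotic transcription factor of the list, rose by 1.82 to 12.35 and 12.32. Mki67, the coat protein of mitotic chromosomes used as the Ki-67 marker of dividing cells, was at 12.00 and 11.99 in TTF and at 15.28 and 15.26 in TTF-ieSC (3.27 ± 0.04, adjusted p = 5.94e-11). Kif11, the motor that pushes spindle poles apart, went from 8.69 and 8.60 to 11.70 and 11.64 (3.02 ± 0.06). Ccna2, cyclin A2, rose by 2.97 ± 0.05, the spindle kinase gene Plk1 by 2.75 ± 0.08 and the checkpoint kinase gene Bub1b by 2.79 ± 0.10. Birc5 (survivin), a subunit of the chromosomal passenger complex, rose by 2.03 ± 0.09, and Prc1, which bundles microtubules in the spindle midzone, by 2.66 ± 0.06. The Cdc20 rise of 2.95 ± 0.37, from 12.64 and 12.39 to 15.44 and 15.49, has a wide error, from a spread shared over all groups, the immature pair among them.

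**Figure D3:**
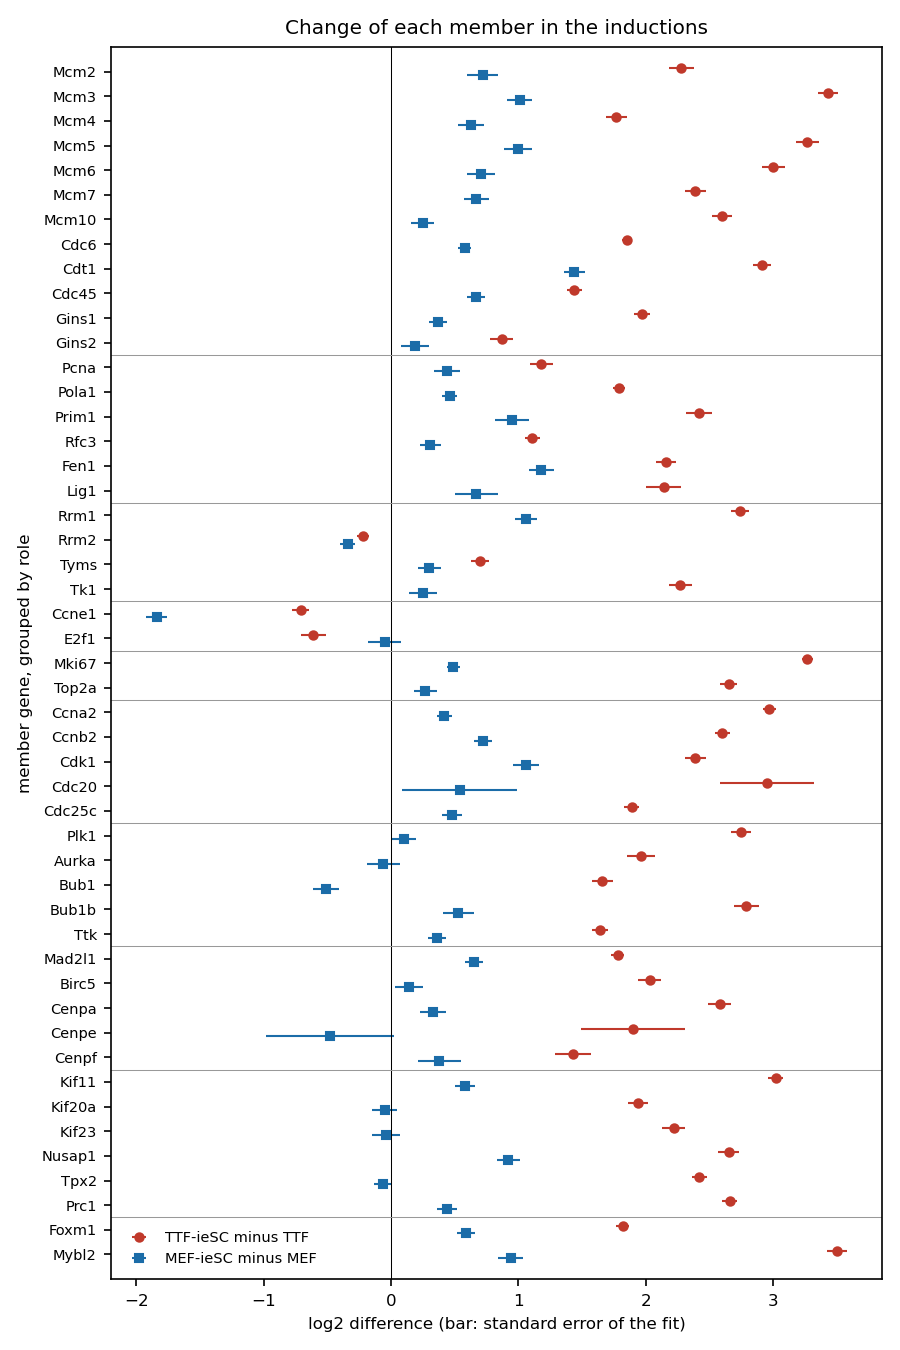
Log2 difference and standard error of each tested member (rows, grouped by role) in TTF-ieSC minus TTF (circles) and MEF-ieSC minus MEF (squares). All circles but those of Rrm2, Ccne1 and E2f1 lie right of 0. The squares lie closer to 0 than the circles for all members but Ccne1 and Rrm2. Ccne1 at -1.84 and Cdt1 at 1.44 are the ends of the range of the squares.

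The comparison of MEF-ieSC with MEF rests on 1 array of induced cells, assumed to vary like the other groups. Of 49 members 34 rose, 3 fell and 12 did not pass, while 34.3% of all genes tested were called higher and 33.6% lower (67.9% in either direction). Of the replication genes 19 of 24 rose and 2 fell, with a median difference of 0.60, and 15 of 25 mitosis genes rose and 1 fell, with a median of 0.42. The largest rise was that of Cdt1, from 13.27 and 13.39 in MEF to 14.77 (1.44 ± 0.08, adjusted p = 5.69e-07). The flap nuclease gene Fen1 rose by 1.18 ± 0.10, Rrm1 by 1.06 ± 0.09 and Cdk1, the mitotic kinase, by 1.06 ± 0.10. Mcm3 rose by 1.01 ± 0.10. Mki67 went from 14.60 on both MEF arrays to 15.09 (0.49 ± 0.05), and Pcna from 14.95 and 15.17 to 15.51 (0.44 ± 0.10, adjusted p = 0.00513).

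Against that direction, Ccne1 was at 14.17 on both MEF arrays and at 12.34 in MEF-ieSC, a fall of 1.84 ± 0.08 (adjusted p = 1.72e-07). MEF had the highest Ccne1 of the 7 groups. Bub1, a kinase of the spindle checkpoint, fell by 0.51 ± 0.10 (adjusted p = 0.00152), from 11.89 and 11.74 to 11.31. It has 10 features, and all of them fell here, by 0.30 to 0.53 on the log2 scale. Whether these are copies of 1 probe was not read, so they may not be separate support. Rrm2 fell by 0.34 ± 0.06 (adjusted p = 0.000942), and E2f1 was 0.05 lower, which did not pass (adjusted p = 0.744). The 12 members that did not pass were Gins2, Tk1 and E2f1 and the mitosis genes Cdc20, Plk1, Aurka, Birc5, Cenpe, Cenpf, Kif20a, Kif23 and Tpx2.

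TTF and MEF, the starting cells, differed in nearly all of these genes. Of 49 members 47 were lower in TTF, 1 was higher and 1, Rrm2, did not pass (-0.10, adjusted p = 0.113), while 35.5% of all genes tested were called lower and 31.1% higher (66.6% in either direction). The median difference was -2.23 over mitosis members and -1.35 over replication members, against -0.03 over all genes. Mybl2 was lowest relative to MEF, at 10.35 and 10.28 against 13.46 and 13.30 (-3.07 ± 0.08, adjusted p = 1.18e-08). Mki67 differed by -2.60 ± 0.04, Pcna by -0.62 ± 0.09 and Ccne1 by -1.34 ± 0.07. E2f1 was the gene that was higher in TTF, by 0.47 ± 0.10 (adjusted p = 0.00376).

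A test of how the inductions differed from each other was made in the same fit. It was called higher for 47 members and lower for 1, E2f1. Of all genes tested, 28.9% were called higher and 25.2% lower (54.1% in either direction). Higher means a larger rise or a smaller fall from TTF, or, as for Bub1, a rise from TTF beside a fall from MEF. Mki67 rose by 2.78 ± 0.07 more from TTF than from MEF (adjusted p = 4.81e-08) and Pcna by 0.74 ± 0.13 more. Ccne1 fell in both and by 1.12 ± 0.11 less from TTF. E2f1 moved by -0.56 ± 0.16 relative to the MEF induction (adjusted p = 0.0194), and this call was lost when TTF replicate 1 (adjusted p = 0.0536) or MEF replicate 2 (adjusted p = 0.0516) was left out. This test contains the difference between TTF and MEF given above, and the induced groups lay close to each other.

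In TTF-ieSC against MEF-ieSC, 46 of 49 members did not pass and their differences had a median of 0, with 7.53% of all genes tested called higher and 6.76% lower (14.3% in either direction). The differences of all 49 members lay between -0.51 and 0.40. Kif11 was higher in TTF-ieSC by 0.40 ± 0.08 (adjusted p = 0.0133), and Mybl2 and Cdt1 were lower (-0.51 ± 0.10 and -0.29 ± 0.08, adjusted p = 0.0110 and 0.0445). Kif11 did not pass without TTF-ieSC replicate 1 (adjusted p = 0.057), and the count of lower members was 1 to 2 when arrays were left out in turn. Mki67 (0.17, adjusted p = 0.0712), Pcna (0.12), Ccne1 (-0.22) and E2f1 (-0.09) did not pass. Mki67 passed with array weights (adjusted p = 0.0378) and Ccne1 with only these groups fitted (adjusted p = 0.0269).

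**Figure D4:**
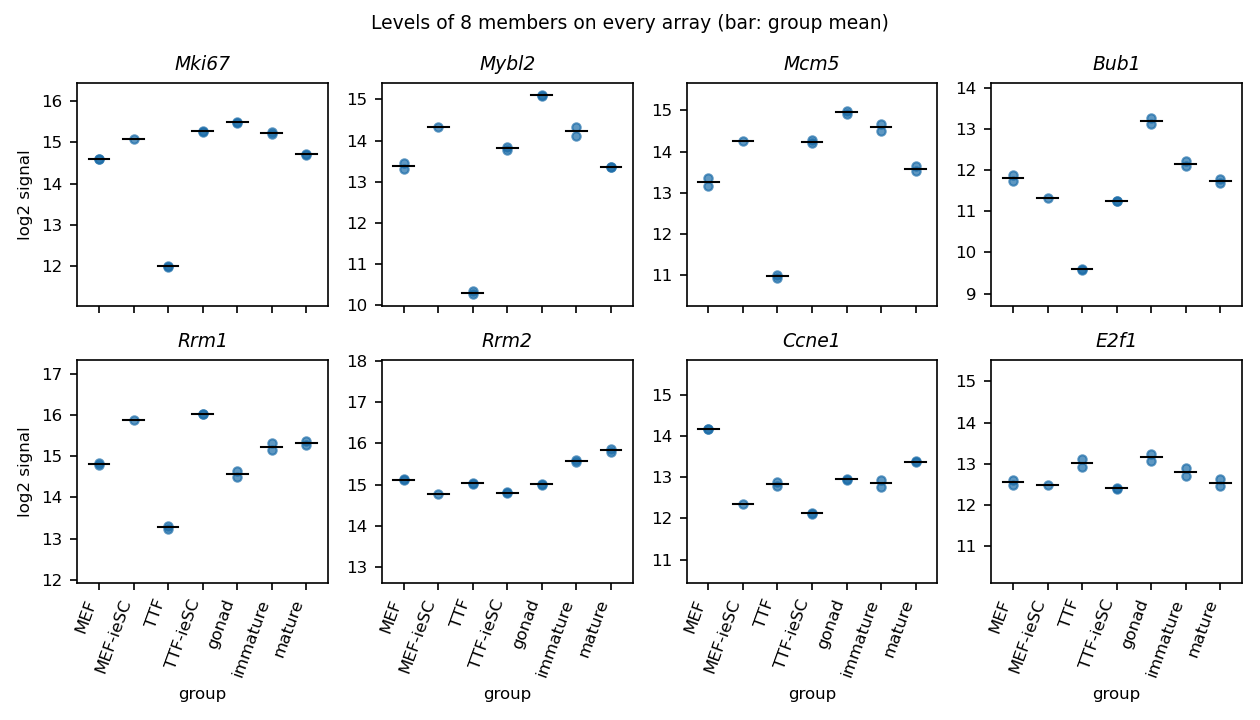
Log2 signal of 8 members on every array (points) with the mean of each group (bars), on axes of equal height. Mki67, Mybl2, Mcm5, Bub1 and Rrm1 are lowest in TTF, Rrm2 runs from 14.78 to 15.86 and is highest in the mature cultures, and Ccne1 is highest in MEF at 14.17.

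The induced cells were next set against the native samples. Against immature Sertoli cell cultures, 9 members were higher in TTF-ieSC, 24 were lower and 16 did not pass, while 37.8% of all genes tested were called higher and 39.0% lower (76.8% in either direction). The replication genes leaned lower (2 higher and 14 lower of 24, median -0.28) and the mitosis genes were split (7 higher and 10 lower of 25, median 0.04). Mki67 was at 15.28 and 15.26 against 15.20 and 15.25 (0.04 ± 0.04, adjusted p = 0.403), and Pcna differed by -0.01 ± 0.09 (adjusted p = 0.886) with overlapping arrays. Rrm1 was higher by 0.79 ± 0.07 and Rrm2 lower by 0.76 ± 0.05, so the subunits of 1 enzyme lay on opposite sides. The other members higher in TTF-ieSC were Cdt1 (0.41), Cdk1 (0.25), Cdc25c (0.17), Bub1b (0.39), Cenpf (0.63), Kif11 (0.62), the spindle protein Nusap1 (0.44) and Cdc20. Bub1 was lowest relative to the immature cells (-0.90 ± 0.08). Also lower were Rfc3 (-0.79 ± 0.06), Mcm10, which helps to start unwinding at the origin (-0.75 ± 0.08), Ccne1 (-0.73 ± 0.07), Gins1 (-0.71 ± 0.06) and E2f1 (-0.41 ± 0.10). The largest positive difference, that of Cdc20 (1.14 ± 0.37, adjusted p = 0.0206), depends on the immature arrays, at 15.05 in replicate 1 and 13.60 in replicate 2. It was 0.41 without replicate 2 (adjusted p = 0.01) and 1.87 without replicate 1 (adjusted p = 2.74e-06). It did not pass without TTF-ieSC replicate 1 (adjusted p = 0.0587), without TTF-ieSC replicate 2 (0.0674) or with only these groups fitted (0.0796). Cenpe, which did not pass (0.20), was -0.61 without immature replicate 2 and 1.02 without replicate 1. Lig1, which did not pass either (0.01), was -0.24 without replicate 2 and 0.26 without replicate 1. The 5 smooth muscle and peritubular markers were at 9.87 to 9.90 in TTF-ieSC and at 16.03 to 16.09 in the immature cultures, and their part in these differences was not tested.

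Against the gonad, 5 members were higher in TTF-ieSC, 35 were lower and 9 did not pass, while 38.2% of all genes tested were called higher and 41.5% lower (79.7% in either direction). The median difference was -0.60 over replication and -0.49 over mitosis members. Bub1 was at 11.25 on both TTF-ieSC arrays and at 13.25 and 13.11 in the gonad (-1.94 ± 0.08, adjusted p = 4.61e-08). Gins1, of the helicase activator, was lower by 1.59 ± 0.06, Mcm10 by 1.43 ± 0.08 and Mybl2 by 1.28 ± 0.08. Mki67 (-0.22 ± 0.04), Pcna (-0.36 ± 0.09), Ccne1 (-0.83 ± 0.07) and E2f1 (-0.75 ± 0.10) were lower too. Those higher in TTF-ieSC were Rrm1, at 16.02 against 14.63 and 14.50 (1.45 ± 0.07, adjusted p = 1.97e-07), Cdk1 (0.45 ± 0.08), Gins2 (0.24 ± 0.09), Foxm1 (0.18 ± 0.05) and Cdc25c, the phosphatase that activates Cdk1 (0.17 ± 0.06). The count of 5 was 2 without gonad replicate 2 and 3 without either TTF-ieSC array, the calls lost being among those of Gins2, Foxm1 and Cdc25c. The gonad is a whole organ: its 10 male germ cell markers had a mean log2 level of 13.71, against 6.98 to 7.28 in TTF-ieSC, and their part in these differences was not tested.

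Against mature Sertoli cell cultures, 30 members were higher in TTF-ieSC, 10 were lower and 9 did not pass, while 43.0% of all genes tested were called higher and 36.6% lower (79.6% in either direction). Of 24 replication members 17 were higher and 3 lower (median 0.50), with Cdt1 at the top (1.34 ± 0.07, adjusted p = 1.62e-07), and of 25 mitosis members 13 were higher and 7 lower (median 0.18), with Kif11 at 1.21 ± 0.06. The mitotic kinase genes Aurka (-0.82 ± 0.11) and Plk1 (-0.46 ± 0.08) were lower, as were Rrm2 (-1.02 ± 0.05), Tk1 (-0.58 ± 0.09) and Ccne1, which was lowest (-1.25 ± 0.07, adjusted p = 3.88e-07). The other 5 that were lower were Bub1, Mad2l1, Birc5, Kif20a and Tpx2, by 0.19 to 0.49 on the log2 scale. Mki67 (0.55 ± 0.04) and Pcna (0.47 ± 0.09) were higher, and E2f1 did not pass (-0.14, adjusted p = 0.245). The smooth muscle and peritubular markers were at 9.87 to 9.90 in TTF-ieSC and 16.59 to 16.62 in the mature cultures. The meiotic and spermatid markers were at 6.72 to 6.78 and 10.60 to 10.66. The part of these other cells in the differences was not tested.

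Between the immature and the mature cultures, replication genes were lower in the mature cells almost throughout. Age of the animals and time in culture (3 days against 7 days) differ together here and cannot be told apart. Of 49 members 32 were lower in mature cells, 7 were higher and 10 did not pass, while 39.6% of all genes tested were called lower and 28.9% higher (68.5% in either direction). All 18 genes of licensing, helicase and fork synthesis were lower, with medians of -0.84 and -0.78, while the median of all genes tested was -0.09. Rfc3 was at 11.69 and 11.73 in immature and at 10.30 on both mature arrays (-1.41 ± 0.06, adjusted p = 2.35e-07). Mcm2 followed at -1.17 ± 0.10 and Mcm5 at -1.01 ± 0.09. The mitosis genes had a median of -0.20, with 12 of 25 lower, 4 higher and 9 not passing. Mybl2 (-0.85 ± 0.08) and Mki67 (14.72 and 14.70 against 15.20 and 15.25, -0.51 ± 0.04) were among the lower. Those higher were Aurka (0.35 ± 0.11), the spindle assembly factor Tpx2 (0.32 ± 0.06), Plk1 (0.30 ± 0.08) and Foxm1 (0.14 ± 0.05), and among the replication genes Tk1 (0.58 ± 0.09), Ccne1 (0.52 ± 0.07) and Rrm2 (0.26 ± 0.05). The other features of Tpx2 and Foxm1 went the other way, at -0.45 and -0.30. Pcna was lower (-0.49 ± 0.09), and E2f1, at -0.27 ± 0.10 (adjusted p = 0.0481), did not pass with 10 of the alternatives tried, a minimum difference of 1 among them. Cenpe, which did not pass (0.61, adjusted p = 0.213), was -0.21 without immature replicate 2 and 1.43 without replicate 1. Cdc20 had the largest positive difference (0.82, adjusted p = 0.0784) and did not pass. It was 0.09 without immature replicate 2 (adjusted p = 0.478) and 1.55 without replicate 1 (adjusted p = 1.36e-05), and it passed with array weights (adjusted p = 0.0453). The 6 meiotic and spermatid markers had a mean log2 level of 10.60 to 10.66 in the mature and 7.80 to 7.84 in the immature cultures, the 10 male germ cell markers 9.92 to 10.12 and 10.92 to 10.96, and their part in the result was not tested.

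**Figure D5:**
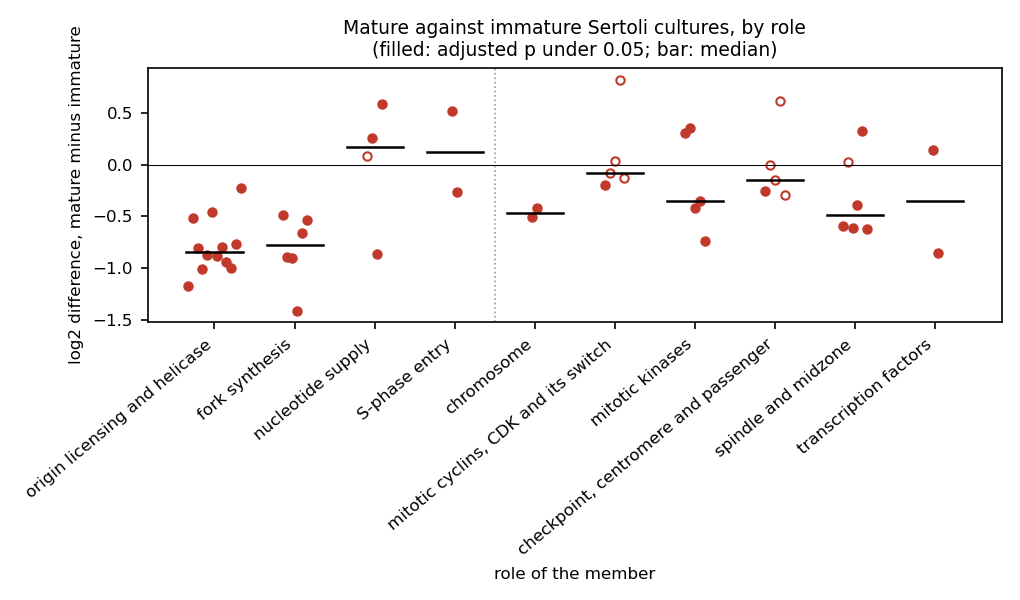
Log2 difference, mature minus immature cultures, of each tested member by role, with filled points for an adjusted p under 0.05, bars for the median of a role and a dotted line between replication (left) and mitosis (right). All points of the licensing, helicase and fork synthesis roles lie below 0, with medians of -0.84 and -0.78, and the medians of the mitotic roles lie nearer to 0.

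In immature cultures against the gonad, 32 members were lower, 6 were higher and 11 did not pass, while 37.9% of all genes tested were called lower and 32.6% higher (70.5% in either direction). The higher ones were all replication genes: Rrm1 (0.67 ± 0.07), Rrm2 (0.55 ± 0.05), Gins2 (0.34 ± 0.09), Cdc45 (0.33 ± 0.06), Cdc6 (0.30 ± 0.04) and Tyms (0.27 ± 0.07). The other feature of Cdc6 was lower, at -0.58. Bub1 (-1.03 ± 0.08) and the DNA ligase gene Lig1 (-1.03 ± 0.14) were lower, as were Mki67 (-0.26 ± 0.04), Pcna (-0.35 ± 0.09) and E2f1 (-0.34 ± 0.10), while Ccne1 did not pass (-0.10, adjusted p = 0.215). The lowest values were those of Cenpe (-1.58 ± 0.41) and Cdc20 (-1.38 ± 0.37). Without immature replicate 2 they were -0.76 and -0.65, and without replicate 1 they were -2.39 and -2.10, and all of these passed. The E2f1 call was lost without gonad replicate 1 (adjusted p = 0.111) or immature replicate 2 (adjusted p = 0.107), where Ccne1 passed (-0.20, adjusted p = 0.0219). The Gins2 call was lost without immature replicate 1 (adjusted p = 0.0558) or gonad replicate 2 (adjusted p = 0.0615). With the arrays brought to a common 75th percentile or quantile normalized again over named genes, 10 members were higher. Markers of other cell types differed too: the median difference was -3.26 over 4 Leydig cell, -7.51 over 3 erythroid, -2.51 over 5 endothelial and -2.40 over 10 male germ cell markers, and 2.73 over 5 smooth muscle and peritubular markers, and their part in the result was not tested.

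Mature cultures and TTF were both grown in 10% serum. Of 49 members 47 were higher in the mature cultures, 1 was lower and 1, Tyms, did not pass (0.05, adjusted p = 0.531), while 36.6% of all genes tested were called higher and 40.4% lower (77.1% in either direction). Plk1 differed most, at 14.75 and 14.71 against 11.44 and 11.60 (3.21 ± 0.08, adjusted p = 4.19e-09), and Mki67 was higher by 2.72 ± 0.04, Pcna by 0.70 ± 0.09 and Ccne1 by 0.53 ± 0.07. E2f1 was the gene that was lower, by 0.47 ± 0.10 (adjusted p = 0.00291). Markers of other cell types differed too. The smooth muscle and peritubular markers were at 16.59 to 16.62 in the mature cultures and 14.21 to 14.26 in TTF. The meiotic and spermatid markers were at 10.60 to 10.66 and 6.23 to 6.25, and the fibroblast markers at 11.26 to 11.34 and 14.87 to 14.95. Their part in the result was not tested.

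Agreement between the features of a member limits how finely its differences can be read. The 10 Bub1 features had an SD of 0.06 to 0.18 within an array, and in TTF-ieSC minus TTF they gave rises of 1.53 to 1.74. Whether they are copies of 1 probe was not read, so this SD may be spread between spots alone. It sets no bound for other members. For 7 of the 11 members with several features, at least 1 called difference had another feature of the opposite sign. They were Cdk1, in TTF against MEF and in the difference between the inductions, Cdc6, Mad2l1 and Birc5 in immature against gonad, Mybl2 in TTF-ieSC against immature, Tpx2 in mature against immature and TTF-ieSC against mature, and Foxm1 in mature against immature. The Cdk1 feature concerned is dim, between 5.20 and 6.89 on the 13 arrays, under the array median. Differences that did not pass are not in this count. Mcm3 did not pass against gonad or immature by the feature used, at 15.16 and 15.12 in TTF-ieSC, 15.10 and 15.05 in gonad and 15.02 and 14.98 in immature. Its other bright feature was at 14.31 and 14.47 in TTF-ieSC, 15.66 and 15.67 in gonad and 15.12 and 15.11 in immature.

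Further genes of the same processes were read from lists written beside the members, with earlier results of these data known. Of 49 tested genes of the other mitosis list, all 49 rose in TTF-ieSC against TTF (median 2.22), 33 rose and none fell in MEF-ieSC against MEF (median 0.40), and 31 were lower and 4 higher in mature than in immature cultures (median -0.32). Of 37 tested genes of the other replication list, 34 rose and 1 fell from TTF (median 1.52), 26 rose and 4 fell from MEF (median 0.57), and 31 were lower and 1 was higher in mature than in immature cultures (median -0.67). Over all genes tested the shares called higher and lower were 39.5% and 35.2% from TTF, 34.3% and 33.6% from MEF, and 28.9% and 39.6% in mature against immature cultures. In their promoter windows TTTGAA stood in 29 of 42 mitosis genes (69.0%) and 4 of 29 replication genes (13.8%), and at least 1 of the 3 E2F boxes in 6 (14.3%) and 9 (31.0%). The exception from TTF was Orc3, a subunit of the origin recognition complex, which fell by 0.87 ± 0.07 there and by 0.84 ± 0.09 from MEF.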

How the data were processed

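The deposited table holds 1 log2 value per array feature and array. That the values are log2 was inferred from their range (0.566 to 18.872), and all 13 arrays share 1 distribution. The submitters' processing notes name limma, while the base of the logarithm and the treatment of background or low signals were not given in the sources used here. Features were named through the platform annotation, updated by accession to RefSeq symbols (31465 of 62976 features named, 31511 unnamed). Each gene was represented by its feature with the highest mean, and a gene entered the tests when 2 or more arrays had it over their median (16658 genes).

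One linear model with a mean per group was fitted to all 13 arrays with limma 3.58.1 in R 4.3.3 (6 residual and 2.18 prior degrees of freedom), and 11 comparisons were read from it, with Benjamini-Hochberg adjustment over all genes tested and a threshold of 0.05. The fit was tested on simulated data. Tables, promoter searches and figures were made with Python 3.11.15, pandas 2.3.3 and matplotlib 3.10.9. Arrays carry no read depth, and precision depends on how many arrays there are and on the spread of each gene. The other MEF-ieSC array was not analysed here.

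The members and all gene and marker lists were chosen with earlier results of these data known. The text names the member with the highest mean of each role, the largest rise and fall of each comparison, members called against the majority or with features that disagree, members not tested, and Mki67, Pcna, Ccne1 and E2f1 in every comparison. Further members were named as examples. Alternatives covered normalization, filter, features, weights, variance model, groups fitted and single arrays left out.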

Additional observations from a re-analysis of the deposited data

Results flagged for a closer look

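The changes from TTF and from MEF differed by the test of the difference itself. It was called higher from TTF for 47 of 49 members and lower for 1, against 28.9% higher and 25.2% lower over all genes tested. The test contains the difference between TTF and MEF themselves. The difference was 2.78 for Mki67, 0.74 for Pcna, 1.12 for Ccne1, which fell in both inductions, and -0.56 for E2f1 on the log2 scale. The MEF induction rests on 1 array. No group has 4 or more arrays, so single arrays were not tested as outliers.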

How the results depend on the processing

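Of 478 recomputed counts of called members, 440 stayed within 1.5 times the reported count, and 38 moved further. Of 1542 recomputed values of single members, 1461 kept their direction and side of the threshold. A minimum log2 difference of 1 changed most. With it, TTF-ieSC against TTF had 0 lower, MEF-ieSC against MEF 5 higher and 1 lower, TTF against MEF 0 higher, TTF-ieSC against MEF-ieSC 0 and 0, and the difference between the inductions 0 lower. TTF-ieSC then had 1 higher and 0 lower against immature, 1 and 7 against gonad and 2 and 2 against mature. Immature against gonad had 0 and 4, mature against immature 0 and 3, and mature against TTF 0 lower. In TTF-ieSC against MEF-ieSC, 1 member was lower with no filter, 2 were higher with array weights and 6 were lower with only those groups fitted. Leaving out arrays in turn gave 0 to 1 higher and 1 to 2 lower there, 0 to 1 lower in the difference between the inductions, and 2 to 6 higher in TTF-ieSC against gonad. Immature against gonad had 10 higher under quantile normalization and under a common 75th percentile, and mature against TTF had 2 lower under quantile normalization. In TTF-ieSC against immature, Mki67 was 0 under both of these and -0.01 with the mean of the features, and Pcna ranged from -0.03 to 0.01 when arrays were left out, 0.01 without immature replicate 2. Cdc6 in immature against gonad was -0.14 with the mean of the features (limma adjusted p = 0.0237). The cause was not tested, save that a filter at the 75th percentile tests fewer members. No paired analysis was possible because the labels give no replicate numbers and tie no arrays together, and the numbers used here only name arrays. Differences near the signal of dim features, and any contrast with the 1 MEF-ieSC array, have the least precision.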

Other observations

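Genes that control entry into the cycle were not members, and those given here were chosen after their values were seen. E2f2, an activating E2F factor, had group means of 10.25 in MEF, 12.90 in MEF-ieSC, 8.77 in TTF and 12.65 in TTF-ieSC. It rose from TTF by 3.87 ± 0.05 and from MEF by 2.66 ± 0.06 (limma adjusted p = 5.05e-11 and 2.51e-09). E2f3, another activating E2F factor, fell by 0.60 ± 0.07 and by 1.01 ± 0.08. Ccnd2, cyclin D2, fell by 2.74 ± 0.08 from TTF and by 3.46 ± 0.10 from MEF. Ccnd1, cyclin D1, rose from MEF by 2.02 ± 0.12, and it rose from TTF as well, by 1.02 ± 0.15 less. Of the 24 genes of the list for control of the cycle, 18 rose and 2 fell from TTF, against 39.5% and 35.2% of all genes tested. From MEF, 8 rose (33.3%) and 4 fell (16.7%), while 34.3% of all genes tested rose and 33.6% fell, so the share that rose is near that of all genes.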
